A study of Danio rerio with 6 samples.

Results

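The genes described here are a list of 52 zebrafish cell cycle genes that act in DNA replication (S phase) or in the preparation for and execution of mitosis (G2 and M phase). The rule used gene names only and no measured value, although the list was chosen with earlier results of these data known. Each name was looked up, ignoring letter case, among the Ensembl gene names of a count table that held 32105 genes. In total, 51 of the 52 genes were found, 24 of S phase and 27 of G2 and M phase, whereas *incenp*, which encodes the scaffold of the chromosomal passenger complex, matched no row and is not analysed here. Of the 51, 47 were found by symbol, *birc5a* by its symbol without the paralog letter, and *mcm6*, *rrm2* and *prc1b* by Ensembl identifier, since their symbols each stood on 2 rows.

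RNA-seq libraries from 3 mutant and 3 wild-type zebrafish larvae were compared, all at 5 days post fertilization (dpf). The mutants were homozygous for IT325, allele t24980, a chemically induced nonsense allele of *ikzf1*, which encodes the haematopoietic zinc finger transcription factor Ikaros. The protein encoded by IT325 lacks the C-terminal zinc fingers and retains the N-terminal zinc fingers that bind DNA. The wild-type fish were siblings of the mutants, both genotypes had a background of mixed wild-type strains, and per the study's methods each library came from an individual fish. The libraries held between 37390073 and 53279243 counts.

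As a check of the genotype, *ikzf1* itself stood at 1167, 1766 and 1148 CPM (counts per 1000000) in mutants 1, 2 and 3, against 276, 306 and 300 CPM in wild types 1, 2 and 3. Its transcript was thus higher in every mutant (log2 fold change 2.21); counts per gene do not read the nonsense change itself. Here and below, CPM are relative to a library's total after TMM scaling (trimmed mean of M values), which corrects for differences in library composition. The TMM factors were 0.919 to 0.997 in mutants and 1.02 to 1.05 in wild types, so the scaling raised mutants relative to wild types. Overlap between genotypes is given below for scaled CPM only. The libraries are labelled as whole body, yet markers of tissues that make up most of a larva were close to absent. The 7 skeletal muscle markers found summed to 2.832 to 4.161 CPM in mutants, against 1.603 to 2.198 CPM in wild types, with 6 of the 7 below 1 CPM on average, and 3 of the 4 retina and lens markers found had 0 counts in every library. By contrast, the 4 neutrophil markers found summed to 26436 to 27784 CPM in mutants, against 16774 to 17179 CPM in wild types. The values below therefore go by the genotype of the library, without assignment to a tissue.

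Before a cell divides, the origin recognition complex, Cdc6 and Cdt1 load the Mcm2 to Mcm7 helicase onto origins of replication, a step known as licensing. In S phase Cdc45 and the GINS complex switch this helicase on, primase and the DNA polymerases copy the strands around the sliding clamp PCNA, and ribonucleotide reductase and thymidylate synthase supply the nucleotides. Cyclin B bound to Cdk1 then drives entry into mitosis, where Aurora and Polo-like kinases, motor proteins of the kinesin family and the kinetochores align the chromosomes, until the anaphase-promoting complex releases separase and the sister chromatids part. In zebrafish larvae of this age, the thymus and the haematopoietic sites are among the tissues in which cells divide rapidly.

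Fold changes are mutant over wild type on the log2 scale and were tested with the quasi-likelihood test of edgeR across 17828 genes, with Benjamini-Hochberg adjustment over all of them; a gene is called where the adjusted p is below 0.05. All 51 genes were tested. Where genes of this list differed beyond the spread between libraries, they were higher in IT325 mutants, by modest amounts. In all, 14 of the 51 genes (27.5%) were called higher and 0 were called lower, against 17.5% called higher, 16.4% called lower and 33.9% called in either direction among all genes tested. None of the genes on the list with a negative fold change reached an unadjusted p of 0.05, and DESeq2 likewise called 0 of the 51 lower and 15 higher. The 14 genes differed by 1.22-fold (*rrm1*) to 1.52-fold (*cdt1*) and 0 of them by 2-fold, whereas 44.3% of all called genes differed by at least 2-fold. The fold change was above 0 for 48 of 51 genes (94.1%), against 49.4% of all genes tested, and its median was 0.21, against -0.01 over all genes. Without a scaling factor, where the median of all genes moved to -0.11, 39 of the 51 remained above 0 and 3 were called (*cdt1*, *tyms* and *cdk1*). In bulk libraries, a change in the number of cells of a type and a change in RNA per cell cannot be told apart.

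**Figure D1:**
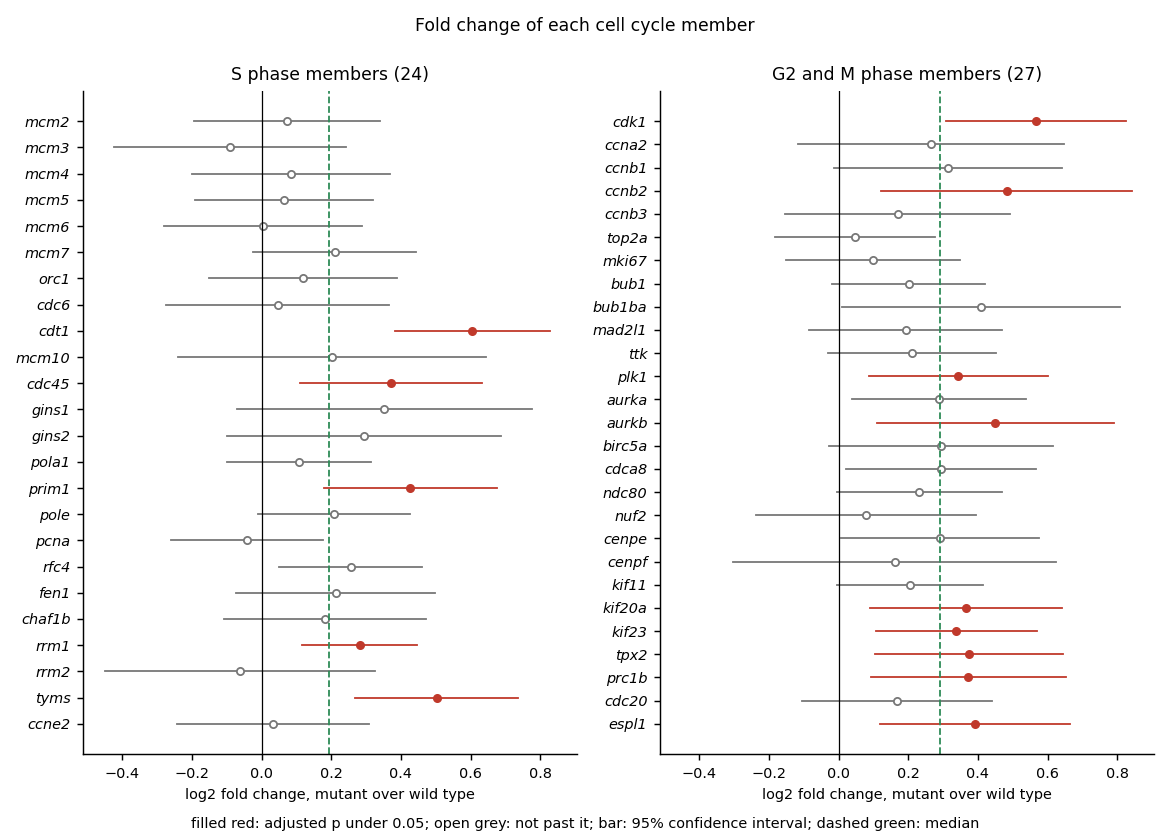
Log2 fold change (mutant over wild type, x axis) of the 24 S phase genes and the 27 G2 and M phase genes found. Points are edgeR estimates and bars 95% confidence intervals; filled red points are the 14 genes called, open grey points the other 37, and the dashed green line marks the median of each phase (0.19 and 0.29). Every called gene lies to the right of 0, and only *mcm3*, *rrm2* and *pcna* lie to its left.

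Among the 9 licensing genes, *cdt1*, whose product loads the Mcm helicase and is destroyed once S phase begins, stood apart from the others. It reached 19.6, 19.1 and 18.2 CPM in mutants 1, 2 and 3, against 12.9, 11.5 and 13.0 CPM in wild types 1, 2 and 3. The mutants lay close together, all above the wild types, at a log2 fold change of 0.60 with an SE of 0.098 (edgeR adjusted p = 0.00187). This was the largest fold change on the list, and the call held in all 14 other fits that changed the scaling, filter, tool or libraries.

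The helicase loaded by Cdt1 did not show such a difference. The 6 genes *mcm2* to *mcm7* had fold changes from -0.09 (*mcm3*) to 0.21 (*mcm7*), with a median of 0.07 (-0.03 without a scaling factor), and 0 of the 6 were called by edgeR or had an unadjusted p below 0.05. *mcm2* had 124, 136 and 111 CPM in mutants 1, 2 and 3 and 110, 105 and 137 CPM in wild types 1, 2 and 3. Wild type 3 was the highest and wild type 2 the lowest of the 6 libraries, so that the groups overlapped completely, and the 95% confidence interval of the fold change was -0.20 to 0.34. The remaining licensing genes, *orc1*, the large subunit of the origin recognition complex, and *cdc6*, the ATPase that recruits Cdt1 to it, had fold changes of 0.12 and 0.05, and neither was called (edgeR adjusted p = 0.473 and 0.825).

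All 4 genes that activate the helicase had fold changes above 0, with a median of 0.32. Of these, 1 was called higher, against 17.5% of all genes tested. *cdc45*, a subunit of the active helicase, was found at 11.2, 10.3 and 10.1 CPM in mutants 1, 2 and 3, against 7.62, 8.20 and 8.60 CPM in wild types 1, 2 and 3. Again, no wild-type library reached the lowest mutant (log2 fold change 0.37, edgeR adjusted p = 0.0351), although the call was lost in 5 of the 6 fits that left out a library. *gins1* and *gins2*, subunits of the GINS complex, had fold changes of 0.35 and 0.29 with overlapping groups and were not called (edgeR adjusted p = 0.178 and 0.222). *mcm10*, which assists the firing of origins, had a fold change of 0.20 with a confidence interval of -0.24 to 0.64.

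Of the 7 genes of DNA synthesis, only *prim1* was called (14.3%), close to the 17.5% called higher over all genes tested. It encodes the catalytic subunit of primase, which makes the RNA primers that start each new strand, and measured 20.5, 20.9 and 18.4 CPM in mutants 1, 2 and 3, against 13.3, 16.4 and 14.8 CPM in wild types 1, 2 and 3. The lowest mutant lay above the highest wild type (log2 fold change 0.43, SE 0.11; edgeR adjusted p = 0.017). Next in order came *rfc4*, a subunit of the clamp loader, at 24.3, 23.3 and 22.0 CPM in mutants 1, 2 and 3 and 19.5, 18.3 and 20.5 CPM in wild types 1, 2 and 3. These groups did not overlap either, but the difference just missed the threshold in edgeR (log2 fold change 0.26, adjusted p = 0.059) and was called by DESeq2. *pole*, the leading strand polymerase, also showed no overlap between groups (36.8, 37.7 and 36.8 CPM in mutants 1, 2 and 3; 27.9, 34.0 and 34.3 CPM in wild types 1, 2 and 3) without being called (edgeR adjusted p = 0.129).

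*pcna*, the sliding clamp that is widely used as a marker of dividing cells, did not differ beyond the spread between libraries. It was detected at 268, 269 and 237 CPM in mutants 1, 2 and 3, against 239, 260 and 298 CPM in wild types 1, 2 and 3. Both the highest and the second lowest of the 6 values belonged to wild-type libraries, and the confidence interval of the log2 fold change (-0.04) ran from -0.26 to 0.18; the sign turned when mutant 3 (0.022) or wild type 3 (0.047) was left out. The other members of this group were *pola1*, the polymerase that extends the primers, *fen1*, the nuclease that trims them off, and *chaf1b*, a chaperone that places histones on new DNA. They had fold changes of 0.11, 0.21 and 0.18 and were not called (edgeR adjusted p = 0.225 to 0.391).

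Nucleotide supply was represented by only 3 genes, of which 2 were called higher, against 17.5% of all genes tested. *tyms*, thymidylate synthase, had 34.2, 31.8 and 28.4 CPM in mutants 1, 2 and 3 and 20.4, 22.3 and 23.9 CPM in wild types 1, 2 and 3. The groups were well separated (log2 fold change 0.50, SE 0.103; edgeR adjusted p = 0.00614), and this call also held in all 14 other fits. *rrm1*, the large subunit of ribonucleotide reductase, stood at 86.8, 89.9 and 83.1 CPM in mutants 1, 2 and 3, against 66.9, 72.2 and 74.8 CPM in wild types 1, 2 and 3. Its fold change was the smallest of the called genes but among the most precise (0.28 ± 0.073, SE; edgeR adjusted p = 0.0178). The small subunit of the same enzyme, *rrm2*, did not follow it: 77.9, 59.1 and 56.7 CPM in mutants 1, 2 and 3 overlapped with 60.1, 59.9 and 82.2 CPM in wild types 1, 2 and 3, with a log2 fold change of -0.06 and a confidence interval of -0.45 to 0.32. The difference between the subunits was not tested. *ccne2*, the cyclin E that acts with Cdk2 at the start of S phase, had a log2 fold change of 0.03 (edgeR adjusted p = 0.858), which turned to -0.08 without a scaling factor.

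**Figure D2:**
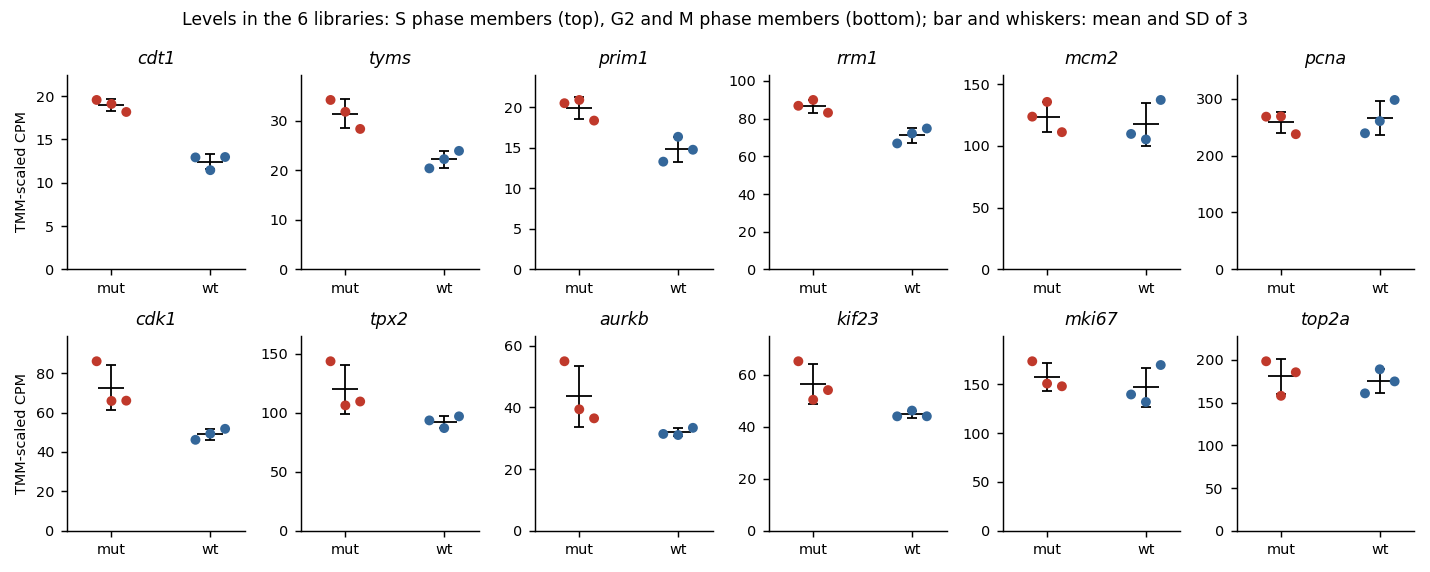
TMM-scaled CPM (y axis, from 0) of 12 genes in the 3 mutant (red, left) and 3 wild-type (blue, right) libraries; bars and whiskers are mean and SD. In the upper row (S phase), *cdt1*, *tyms*, *prim1* and *rrm1* show no overlap between genotypes while *mcm2* and *pcna* do; in the lower row (G2 and M phase), mutant 1 is the highest library for all 6 genes.

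Turning to mitosis, all 27 G2 and M phase genes had a fold change above 0 (24 of 27 without a scaling factor), with a median of 0.29. In this phase 9 genes (33.3%) were called higher and 0 lower, against 17.5% and 16.4% of all genes tested. Of the 24 S phase genes, 5 (20.8%) were called higher and 0 lower, so their share called higher was close to that of all genes. *cdk1*, the kinase that drives entry into mitosis, reached 86.0, 65.9 and 66.0 CPM in mutants 1, 2 and 3, against 46.2, 49.3 and 51.7 CPM in wild types 1, 2 and 3. Mutants 2 and 3 were nearly equal and mutant 1 stood higher, but each of them lay above every wild type (log2 fold change 0.57, SE 0.114; edgeR adjusted p = 0.00545). This was the only G2 and M phase gene called in all 14 other fits, with a fold change between 0.43 and 0.64 when a library was left out.

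The cyclins that pair with Cdk1 differed by less or with more scatter. *ccnb2*, a B-type cyclin, was found at 7.07, 6.02 and 7.85 CPM in mutants 1, 2 and 3, against 4.87, 4.60 and 5.51 CPM in wild types 1, 2 and 3. It was called (log2 fold change 0.48, edgeR adjusted p = 0.0446) and was the only G2 and M phase gene with its highest value in mutant 3. *ccnb1*, the main mitotic cyclin, had 72.0, 55.1 and 53.2 CPM in mutants 1, 2 and 3 and 44.1, 44.7 and 56.3 CPM in wild types 1, 2 and 3. Wild type 3 lay above mutants 2 and 3, and the fold change of 0.31 was not called (edgeR adjusted p = 0.126). *ccna2*, a cyclin that acts in S phase as well as in G2, and *ccnb3* had fold changes of 0.27 and 0.17 with overlapping groups (edgeR adjusted p = 0.252 and 0.392).

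Of the 5 genes for mitotic kinases and the passenger complex, 2 were called higher, against 17.5% of all genes tested. *plk1*, a kinase that acts on centrosomes, chromosomes and the cleavage furrow, measured 94.81, 74.16 and 71.82 CPM in mutants 1, 2 and 3, against 63.62, 59.19 and 66.97 CPM in wild types 1, 2 and 3. The groups did not overlap and the log2 fold change was 0.34 (edgeR adjusted p = 0.045). *aurkb*, the kinase of the passenger complex that corrects faulty attachments of chromosomes, had 54.9, 39.3 and 36.4 CPM in mutants 1, 2 and 3, against 31.4, 31.0 and 33.4 CPM in wild types 1, 2 and 3. Mutant 1 exceeded the other two by far, the wild types were tight, and the log2 fold change was 0.45 (edgeR adjusted p = 0.0474). *aurka*, the related kinase of the spindle poles, and *cdca8*, which encodes the passenger subunit borealin, were the uncalled G2 and M phase genes nearest to the threshold, with fold changes of 0.29 each, no overlap between groups and edgeR adjusted p-values of 0.0743 and 0.09. *birc5a*, which encodes the passenger subunit survivin, had the same fold change of 0.29 with overlapping groups.

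Of the 5 genes of the spindle and of cytokinesis, 4 were called higher, against 17.5% of all genes tested, with a median of 0.37. Every mutant lay above every wild type for all 5, against 25.8% of all genes, and mutant 1 was the highest library for all 5. Without a scaling factor the genotypes would overlap for *kif11* and *prc1b*. With a library left out, however, 0 of the 5 were called without mutant 1, without wild type 1 or without wild type 2. *tpx2*, which nucleates spindle microtubules and activates Aurora A, had 143, 106 and 109 CPM in mutants 1, 2 and 3, against 93.4, 86.9 and 96.8 CPM in wild types 1, 2 and 3 (log2 fold change 0.37, edgeR adjusted p = 0.0399). *kif23*, a kinesin of the central spindle, reached 65.2, 50.4 and 54.1 CPM in mutants 1, 2 and 3, against 44.0, 46.2 and 44.0 CPM in wild types 1, 2 and 3 (log2 fold change 0.34, edgeR adjusted p = 0.0313). In both cases the 3 wild-type libraries lay close together and mutant 1 lay well above the other mutants. *kif20a*, another kinesin of cytokinesis, had 47.8, 39.9 and 38.2 CPM in mutants 1, 2 and 3, against 27.9, 34.3 and 35.4 CPM in wild types 1, 2 and 3. *prc1b*, which bundles the microtubules of the central spindle, had 38.6, 29.5 and 32.5 CPM in mutants 1, 2 and 3, against 23.1, 26.0 and 28.7 CPM in wild types 1, 2 and 3. For these genes the lowest mutant was only slightly above the highest wild type, and both had a log2 fold change of 0.37 (edgeR adjusted p = 0.0459 and 0.0452). *kif11*, the motor that pushes the spindle poles apart, had a fold change of 0.20 and was not called (edgeR adjusted p = 0.119).

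In anaphase, *espl1*, which encodes separase, the protease that cuts the cohesin ring, was called, with 57.8, 43.9 and 44.5 CPM in mutants 1, 2 and 3, against 34.5, 36.8 and 40.1 CPM in wild types 1, 2 and 3 (log2 fold change 0.39, edgeR adjusted p = 0.034). *cdc20*, the activator of the anaphase-promoting complex, had a fold change of 0.17 and was not called (edgeR adjusted p = 0.317). The 4 spindle checkpoint genes, *bub1*, *bub1ba*, *mad2l1* and *ttk*, whose products delay anaphase until every chromosome is attached, had fold changes from 0.19 to 0.41. None of the 4 was called by edgeR or by DESeq2. For 3 of them every mutant lay above every wild type, as for 25.8% of all genes tested. These were *bub1*, *bub1ba* and *ttk*, and the genotypes would overlap for each of them without a scaling factor. *bub1ba* had an unadjusted edgeR p of 0.0455, and 7879 of the 17828 genes tested had one below 0.05. The 4 kinetochore genes were likewise not called by either tool. Their fold changes ran from 0.08 for *nuf2*, a subunit of the Ndc80 complex that grips microtubules, over 0.16 for *cenpf* and 0.23 for *ndc80*, to 0.29 for the kinetochore motor *cenpe* (unadjusted p = 0.0451).

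The remaining genes are 2 that are commonly used to mark proliferating cells. *mki67*, which encodes the Ki-67 protein that coats mitotic chromosomes, had 174, 151 and 148 CPM in mutants 1, 2 and 3 and 140, 132 and 170 CPM in wild types 1, 2 and 3. *top2a*, the topoisomerase that untangles sister chromatids, had 198, 158 and 186 CPM in mutants 1, 2 and 3 and 161, 189 and 175 CPM in wild types 1, 2 and 3. For both genes the genotypes overlapped and the differences were within the spread between libraries: the log2 fold change of *mki67* was 0.10 with a confidence interval of -0.15 to 0.35, and that of *top2a* 0.05 with an interval of -0.18 to 0.28. Both signs turned without a scaling factor. Thus *mki67*, *top2a* and *pcna* were not called in the same libraries in which *cdk1* and *tyms* were.

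In a next step, S phase genes were compared with G2 and M phase genes. Every mutant lay above every wild type for 16 of 27 G2 and M phase genes (59.3%) and for 7 of 24 S phase genes (29.2%), against 25.8% of all genes tested. Every mutant lay below every wild type for 0 of the 51 genes, against 24.7% of all genes. These counts rest on the TMM scaling, which raised mutants relative to wild types. Without a scaling factor the genotypes would overlap for *aurka*, *bub1*, *bub1ba*, *cdca8*, *kif11*, *prc1b* and *ttk* of G2 and M phase. The same holds for *pole* of S phase, so the gap between the phases would narrow. The median fold change of the S phase genes was 0.19 and that of the G2 and M phase genes 0.29, a difference of -0.10. Genes of 1 phase share their libraries and are not independent of each other, so the difference was examined at the level of libraries, by averaging the log2 CPM of the genes of a phase and subtracting the mean of the wild types. For S phase genes this gave 0.20, 0.29 and 0.07 in mutants 1, 2 and 3, against -0.12, -0.02 and 0.14 in wild types 1, 2 and 3. The genotypes overlapped, with wild type 3 above mutant 3. For G2 and M phase genes the values were 0.51, 0.15 and 0.16 in mutants 1, 2 and 3, against -0.06, -0.03 and 0.09 in wild types 1, 2 and 3. Here all mutants were above the wild types, by a margin of 0.06 between mutant 2 and wild type 3. This margin rests on the same scaling, with TMM factors of 0.980 in mutant 2 and 1.04 in wild type 3. Without a scaling factor mutant 2 would lie below wild type 3, so the genotypes would overlap for this phase too. The S phase value minus the G2 and M phase value was -0.31, 0.14 and -0.09 in mutants 1, 2 and 3, and -0.06, 0.01 and 0.05 in wild types 1, 2 and 3. Mutants thus lay on both sides of the wild types, and their mean of -0.09 ± 0.23 (SD, n = 3) was smaller in size than the spread between them. Without mutant 1 the difference of the medians was 0.01.

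**Figure D3:**
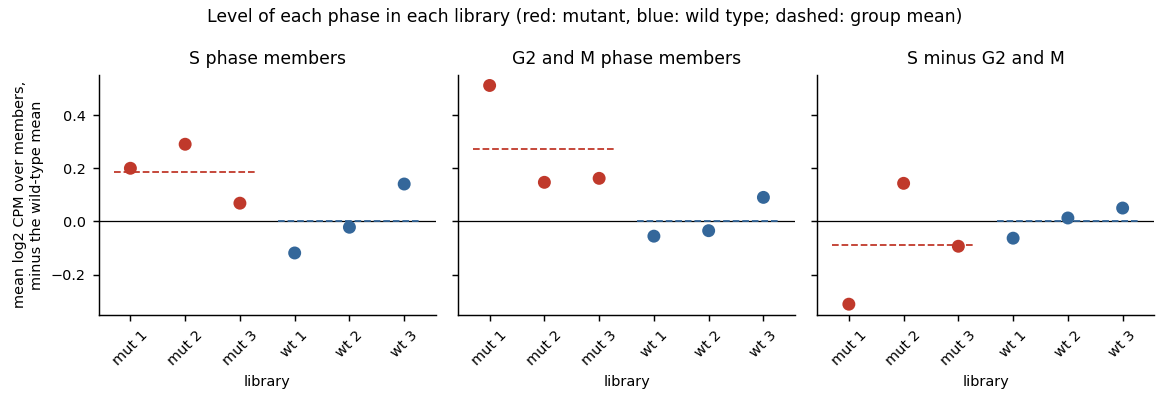
Mean log2 CPM of the S phase genes (left), of the G2 and M phase genes (middle) and the first minus the second (right) in each library, relative to the mean of the wild types (y axis, log2 units); mutants are red and left, wild types blue and right, and dashed lines are group means. Mutant 1 stands at 0.51 for G2 and M phase genes, and the difference between phases is negative in mutants 1 and 3 and positive in mutant 2.

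The mutants differed among themselves in which phase was highest. Mutant 1 had the highest value of all 6 libraries for 26 of 27 G2 and M phase genes but for only 5 of 24 S phase genes, while mutant 2 was highest for 14 of 24 S phase genes and for 0 of 27 G2 and M phase genes. For comparison, mutant 1 was the highest library for 20.6% of all genes tested and mutant 2 for 11.2%. Wild type 3 was highest for the other 5 S phase genes, of which 3 encode Mcm subunits (*mcm2*, *mcm3* and *mcm6*), together with *pcna* and *rrm2*. Summed over the Mcm2 to Mcm7 genes, mutant 2 reached 676 CPM, against 560 CPM in mutant 1 and 551 CPM in mutant 3, and wild type 3 reached 645 CPM, against 520 and 543 CPM in wild types 1 and 2. The spread within each genotype was therefore as large as any difference between them for this complex. Erythroid markers, described at the end, summed to 8352, 7323 and 6070 CPM in mutants 1, 2 and 3, and their part in the high values of mutant 1 was not tested.

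Since mutant 1 carried the highest values, the calls were repeated without it. Only *cdk1* of the 27 G2 and M phase genes was then called, the median fold change was 0.17, and 24 of 27 remained above 0; of the 24 S phase genes, 4 were called (*cdt1*, *prim1*, *rrm1* and *tyms*), with a median of 0.18. The S phase median was 0.08 without wild type 1 and 0.12 without mutant 2. The same fit without mutant 2 called 2 S phase and 6 G2 and M phase genes, and that without mutant 3 called 4 and 8. Without wild type 1, 2 S phase genes and 1 G2 and M phase gene were called, without wild type 2 the numbers were 4 and 1, and without wild type 3 they were 5 and 6. Fits that left out a library called 4587 to 5978 of all genes, against 6039 with all 6 libraries. *cdt1*, *tyms* and *cdk1* were called in all 6 of these fits and *prim1* and *rrm1* in 4, whereas each of the other 9 called genes was called in 1 to 3 of the 6.

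**Figure D4:**
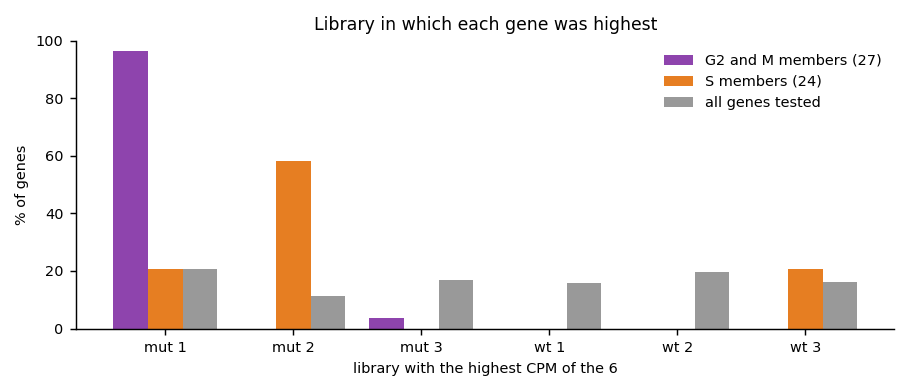
Share of genes (y axis, %) that had their highest CPM of the 6 libraries in each library (x axis), for the 27 G2 and M phase genes (purple), the 24 S phase genes (orange) and all genes tested (grey). Mutant 1 is the highest library for 26 of 27 G2 and M phase genes and mutant 2 for 14 of 24 S phase genes, against 20.6% and 11.2% of all genes.

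Further genes of the same processes were examined as separate lists, also chosen with earlier results of these data known. Of 33 other replication genes tested, 10 were called higher in mutants and 0 lower by edgeR, with a median of 0.13, against 17.5% called higher and 16.4% called lower over all genes tested. The largest differences were those of *rpa3*, the small subunit of the complex that protects single-stranded DNA (9.78 ± 0.45 CPM in mutants, against 6.42 ± 1.33 CPM in wild types; mean ± SD of 3), *dhfr*, which regenerates the folate used by thymidylate synthase (11.6 ± 1.21 and 8.28 ± 0.39 CPM), *gins4* (19.9 ± 2.85 and 14.3 ± 0.62 CPM) and *rfc5*, a subunit of the clamp loader (35.1 ± 2.76 and 25.6 ± 2.97 CPM). Their log2 fold changes were between 0.45 and 0.61. All 3 subunits of the single-strand binding complex were called, as were *rfc2*, *tk1* and *chaf1a*. Of 48 other mitosis genes tested, 8 were called higher and 0 lower, with a median of 0.20; the share called higher was close to the 17.5% over all genes. Here *cenpw*, *spc25*, *spc24* and *tacc3* led, with log2 fold changes of 0.71, 0.53, 0.52 and 0.50. The first 3 encode parts of the kinetochore, and the last a protein of spindle microtubules. For *tacc3* the values were 143, 108 and 104 CPM in mutants 1, 2 and 3, against 81.4, 81.9 and 87.9 CPM in wild types 1, 2 and 3. Mutant 1 was again the highest library. These calls were sensitive to single libraries, with 1 to 9 replication genes and 0 to 12 mitosis genes called higher when a library was left out (1 and 2 without mutant 1, 2 and 0 without wild type 1).

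Of 32 regulators of the cell cycle tested, 10 were called higher and 2 lower in mutants, against 17.5% higher and 16.4% lower over all genes tested. The share called in either direction was close to the 33.9% over all genes, but most of these calls were higher in mutants. *e2f5*, an E2F factor of the repressor type in mammals, had 3.76, 2.13 and 3.20 CPM in mutants 1, 2 and 3, against 0.55, 0.80 and 1.28 CPM in wild types 1, 2 and 3. *e2f2*, an activator of S phase genes in mammals, had 16.5, 18.4 and 16.5 CPM in mutants 1, 2 and 3, against 10.2, 7.92 and 11.7 CPM in wild types 1, 2 and 3. Neither gene showed overlap between the genotypes, with log2 fold changes of 1.77 for *e2f5* and 0.78 for *e2f2* (edgeR adjusted p = 0.00674 and 0.00415). *skp2*, which targets Cdk inhibitors for destruction, was also higher (14.6, 11.4 and 9.45 CPM in mutants 1, 2 and 3; 6.36, 7.54 and 8.19 CPM in wild types 1, 2 and 3; log2 fold change 0.68). The 2 regulators called lower were *mybl1* and *cdk4*. *mybl1*, a factor of the Myb family, had 14.3, 12.2 and 13.4 CPM in mutants 1, 2 and 3, against 18.8, 21.2 and 20.8 CPM in wild types 1, 2 and 3. *cdk4*, the partner of D-type cyclins in G1, had 37.8, 41.6 and 40.7 CPM in mutants 1, 2 and 3, against 54.2, 54.7 and 51.1 CPM in wild types 1, 2 and 3. The genotypes were apart for both genes, with log2 fold changes of -0.61 for *mybl1* and -0.41 for *cdk4* (edgeR adjusted p = 0.00226 and 0.0032).

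Among 8 Cdk inhibitors and antiproliferative genes tested, 1 was called higher and 2 lower, likewise close to the 33.9% over all genes. *cdkn1a*, which encodes the Cdk inhibitor p21, was found at 32.4, 25.3 and 18.9 CPM in mutants 1, 2 and 3, against 10.1, 9.50 and 8.51 CPM in wild types 1, 2 and 3. The lowest mutant lay far above the highest wild type, and the log2 fold change of 1.45 exceeded that of any gene on the replication and mitosis list (edgeR adjusted p = 7.95e-04). The inhibitor gene *cdkn2c* and the antiproliferative gene *btg1* were lower, with log2 fold changes of -0.60 and -0.41 (edgeR adjusted p = 0.0398 and 0.0186). Chosen after their values were seen, *ccnd1*, *cdk2* and *mdm2* were also called higher, as were further regulators not named here. The choice of *cdk4* above was likewise made after its values were seen. *ccnd1*, a D-type cyclin, had 76.3, 73.2 and 60.9 CPM in mutants 1, 2 and 3, against 45.7, 48.0 and 47.4 CPM in wild types 1, 2 and 3. *cdk2*, the kinase of S phase, and *mdm2*, which encodes a ubiquitin ligase, had log2 fold changes of 0.57 and 0.46, against 0.58 for *ccnd1*. For all 3 genes every mutant lay above every wild type, as for 25.8% of all genes tested. When a library was left out, *skp2* was not called without mutant 1 or wild type 1 (log2 fold change 0.51 and 0.58), *btg1* was not called without mutant 2, wild type 1 or wild type 2, and *cdkn2c* was not called in any of the 6 fits, while the other regulators named here kept their call in all 6.

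**Figure D5:**
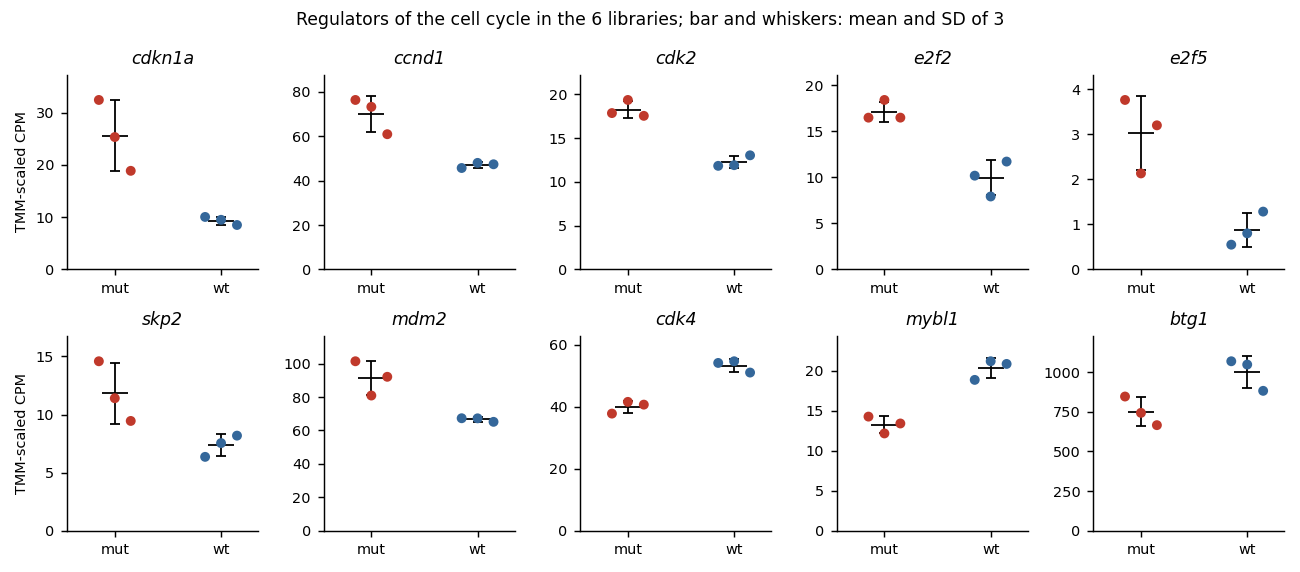
TMM-scaled CPM (y axis, from 0) of 10 cell cycle regulators and antiproliferative genes in the 3 mutant (red, left) and 3 wild-type (blue, right) libraries, with mean and SD. All 10 were picked among called genes, so the lack of overlap between genotypes in each panel is no separate result. Every mutant lay above every wild type for 25.8% of all genes tested, and below for 24.7%. In the panels, 7 genes are higher in mutants and *cdk4*, *mybl1* and *btg1* are lower.

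Markers of blood cell types moved with the genotype in the same libraries. For comparison with the counts below, 17.5% of all genes tested were called higher and 16.4% lower. All 8 erythroid markers tested were called higher, with a summed level of 6070 to 8352 CPM in mutants, against 1647 to 2438 CPM in wild types, the highest being that of mutant 1; the erythroid globin gene *hbae3* had 0 counts in every library. All 8 T cell markers tested were called lower, with sums of 42.9 to 66.9 CPM in mutants, against 197 to 230 CPM in wild types, as were 5 of 6 B cell markers (79.0 to 121 CPM in mutants, against 494 to 559 CPM in wild types), while the remaining one, *cd22*, was called higher (log2 fold change 2.17). Macrophage markers (3 of 3) and neutrophil markers (3 of 4) were called higher, and the other neutrophil marker, *mmp13a*, was called lower (log2 fold change -1.12). Of 7 markers of haematopoietic progenitors 2 were called higher and 0 lower (578 to 644 CPM in mutants, against 465 to 473 CPM in wild types), against 17.5% called higher over all genes tested. The 2 were *meis1b* and *tal1*, which the study also counts as an erythroid-lineage gene (mean of 134 CPM in mutants, against 43.0 CPM in wild types). Of the uncalled markers, *myb* and *lmo2* had fold changes above 0, and *runx1*, *gata2a* and *gata2b* below 0 (-0.15, -0.15 and -0.29). The part of these markers in the values of the cell cycle genes was not tested.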

How the data were processed

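Libraries were stranded and poly-A-selected per the labels. With STAR 2.5.2b-1 the authors aligned read pairs to the zebrafish genome with an Ensembl annotation (Zv10.85) and counted reads per gene with featureCounts 1.6.0.1 at default settings; whether the counting used strand is not given in the sources used here. The deposited values are raw counts per gene. A separate name list covered 26269 of the 32105 genes (81.8%), and no coordinate or sequence is reported. Names on 2 rows, and pairs of paralogs, may share reads.

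Mutant and wild-type libraries were compared in edgeR 4.0.16 under R 4.3.3, with filterByExpr (minimum count of 10), TMM scaling and robust quasi-likelihood tests, two-sided and without covariate. The SE of a fold change is its size over the square root of F, and confidence intervals use it with the fitted degrees of freedom. DESeq2 1.42.0, other scalings, filters and left-out libraries were alternatives. No exact permutation test of 3 against 3 libraries can fall below 0.1, and none was used. Steps were tested on simulated data. Genes named are those called, the 2 uncalled genes of each phase nearest the threshold, 8 well-known members, and the 4 called genes with the largest fold change (mean of at least 1 CPM) of each other cell cycle list; others are said to be chosen later or are given as values of their group. Members and lists were chosen with earlier results of these data known, and 203 of 249 entries of the other lists were found; 1 further gene of these lists is not reported here. Same-numbered mutants and wild types deviated from their group means with correlations of 0.0787, 0.128 and 0.0548, not all above 0.1, so that the numbers were not taken as pairs.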

Additional observations from a re-analysis of the deposited data

How the results depend on the processing

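The medians of both phases and their difference kept their direction in every fit run that used all 6 libraries. At an adjusted p below 0.05, these fits called 5370 to 6510 of all genes, against 6039 above. With a library left out, 4587 to 5978 genes, 2 to 5 S phase genes and 1 to 8 G2 and M phase genes were called. The S phase median then ranged from 0.08 to 0.25 and the G2 and M phase median from 0.17 to 0.37. Their difference ranged from -0.23 to 0.01. Against 5 S phase and 9 G2 and M phase genes called, upper-quartile scaling called 4 of G2 and M phase, no scaling factor 2 and 1, and an adjusted p under 0.01 called 2 and 1. Of all calls, 39.4% were higher in mutants without a scaling factor and 47.9% with upper-quartile scaling, against 51.7% with TMM. Without a scaling factor, *mcm2* (-0.031), *mki67* (-0.0086) and *top2a* (-0.060) turned sign. That fit also called 4 other replication genes and 3 other mitosis genes higher and 1 mitosis gene lower, against 10, 8 and 0. Leaving out mutant 1 (-0.020) or wild type 1 (-0.012) turned *top2a* (range with a library left out -0.020 to 0.14), and leaving out mutant 3 (0.022) or wild type 3 (0.047) turned *pcna* (range -0.11 to 0.047). With the replicate number as a block, 5370 genes were called, with 4 S phase genes and 2 G2 and M phase genes (*cdk1* and *tpx2*); the samples share only a number. The cause of these changes was not tested. With 3 fish a genotype, fold changes of 1.2 to 1.5 lie near the threshold, and most single calls here moved across it in some fit.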

Other observations

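The 3 names that stood on 2 rows each left a second row that the values above do not use. For *prc1* this second row, *prc1a* by the study's identifiers, had 50.5, 34.6 and 30.9 CPM in mutants 1, 2 and 3, against 22.1, 25.4 and 29.6 CPM in wild types 1, 2 and 3, with a log2 fold change of 0.59 (edgeR adjusted p = 0.054). It thus had no overlap between genotypes and its highest value in mutant 1, like its paralog *prc1b*. The second row named *rrm2* had 11, 188 and 8 counts in mutants 1, 2 and 3 and 13, 12 and 6 counts in wild types 1, 2 and 3, so that a single library, mutant 2, carried nearly all of its counts. The second row named *mcm6* had 13, 14 and 12 counts in mutants 1, 2 and 3 and 8, 20 and 45 counts in wild types 1, 2 and 3.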
